A study of Mus musculus with 14 samples.

Results

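Broad NKX2.2 sites were taken from a genome-wide list of regions compared by NKX2.2 chromatin immunoprecipitation in a mouse pancreatic alpha-cell line. They are those built from many neighbouring windows yet no wider than 1000 bp. The window filter and the use of input are not given, so a listed region is not by itself shown to be bound. A site was included when it lay on chromosomes 1 to 19 or X, started at 3500000 or higher, spanned at most 1000 bp and held at least 7 windows. This gave 488 sites of the 6758 listed regions. They held 4121 of the 26762 windows. The cells were alphaTC6, a mouse line of glucagon-producing alpha cells labelled as wild-type. They were reverse-transfected for 48 h with an siRNA against Klf4 or with a scrambled siRNA. Chromatin was precipitated with an antibody against NKX2.2 from 4 scramble and 3 Klf4-knockdown samples. Input chromatin without precipitation came from 4 scramble and 3 knockdown samples. All groups come from 1 cell line, and the remaining level of KLF4 is not part of the table.

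NKX2.2 is a homeodomain transcription factor needed for the formation and identity of pancreatic islet cells. It can repress genes by recruiting Groucho (TLE) corepressors and can also activate them. KLF4 is a zinc-finger factor that binds GC-rich and CACCC-type sequences. Chromatin immunoprecipitation with sequencing (ChIP-seq) counts DNA fragments bound by a protein. In csaw, the program used by the authors, fragments are counted in short windows along the genome, and neighbouring windows are merged into regions. The number of windows in a region that passed the authors' filter is used here as a stand-in for the extent of enrichment. It is not a count of reads and not a measure of how strongly NKX2.2 bound.

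Of the 488 sites, 104 met at least 1 promoter window, defined as the stretch from 250 bp before to 50 bp after a RefSeq gene start (GRCm38.p6). Stretches of 6 of these promoters are shown because they place sites at the hormone gene of the alpha cell, at the gene of the precipitated factor, at the promoter site with the most windows, at the called site that met a promoter, and at CpG-poor promoters. Each sequence is the part of a site that lies upstream of a gene start, read 5′ to 3′ on the gene's strand. A gene can have several starts. Capitals mark the letters AAGTG or their complement CACTT, the core of sites preferred by NKX2-class homeodomains. A match describes the letters only and is not a bound site.
Gcg, chr2:62483654-62483903 (- strand): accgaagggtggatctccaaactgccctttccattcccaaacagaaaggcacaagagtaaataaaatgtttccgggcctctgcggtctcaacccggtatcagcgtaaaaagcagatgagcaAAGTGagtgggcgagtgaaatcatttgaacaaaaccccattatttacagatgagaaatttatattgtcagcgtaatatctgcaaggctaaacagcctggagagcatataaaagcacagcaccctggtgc
Nkx2-2, chr2:147186551-147186652 (- strand): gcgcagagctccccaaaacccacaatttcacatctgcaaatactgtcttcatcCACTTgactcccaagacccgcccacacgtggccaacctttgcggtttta
Myt1l, chr12:29528134-29528383 (+ strand): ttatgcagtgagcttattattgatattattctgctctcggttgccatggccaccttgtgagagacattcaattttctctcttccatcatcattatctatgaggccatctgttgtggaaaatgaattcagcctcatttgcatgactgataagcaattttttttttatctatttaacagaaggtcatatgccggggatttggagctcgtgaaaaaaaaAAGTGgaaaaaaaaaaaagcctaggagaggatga
Kdm3a, chr6:71632918-71633167 (- strand): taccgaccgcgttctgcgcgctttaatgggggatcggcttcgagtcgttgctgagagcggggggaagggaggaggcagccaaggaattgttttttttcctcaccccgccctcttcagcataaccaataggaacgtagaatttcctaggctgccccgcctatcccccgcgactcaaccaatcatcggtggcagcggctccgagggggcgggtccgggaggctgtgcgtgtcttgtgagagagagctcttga
Gm36543, chr10:25708266-25708515 (- strand): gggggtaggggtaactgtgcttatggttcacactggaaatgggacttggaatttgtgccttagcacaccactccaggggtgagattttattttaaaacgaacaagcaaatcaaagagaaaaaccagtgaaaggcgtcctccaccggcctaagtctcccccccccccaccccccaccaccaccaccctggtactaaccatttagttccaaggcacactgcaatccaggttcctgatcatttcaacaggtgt
Tmem176b, chr6:48841151-48841387 (- strand): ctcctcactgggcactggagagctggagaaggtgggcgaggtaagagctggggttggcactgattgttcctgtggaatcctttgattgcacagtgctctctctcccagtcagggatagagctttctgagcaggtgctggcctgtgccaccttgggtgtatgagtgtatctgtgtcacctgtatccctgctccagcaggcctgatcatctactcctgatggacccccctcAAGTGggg

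The Gcg stretch, from the gene of preproglucagon, is 250 bp long and lay wholly within a 660 bp site. It holds 1 AAGTG core and 7 CG pairs. The Nkx2-2 stretch covers 102 bp and holds the longer match TNAAGTGG (written there on the other strand) once, as does the Tmem176b stretch. That stretch is printed for the Tmem176b start at 48841137. The promoter window of the start at 48840988 also holds the match. That of the start at 48841374, which lies inside the site, does not. Myt1l, which encodes a zinc-finger factor of neural and endocrine cells, has 1 core beside a run of A, and 36.8% of its shown bases are G or C. Kdm3a encodes a histone demethylase, and Gm36543 is a predicted gene. Their stretches hold no AAGTG core. The GC-box pattern CCNCNCCC, a KLF-type sequence, occurs 3 times in the first and 6 times in the second, where overlapping matches within runs of C are counted separately.

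The cores were no rarity in promoters. AAGTG on either strand occurred in 78 of the 151 promoter windows met by broad sites (51.7%), in 47.6% of the 1556 windows met only by other listed regions, and in 46.3% of all 32619 windows of the table. TNAAGTGG, which contains AAGTG, occurred in 8 of the 151 (5.3%), against 3.28% and 3.23%. CCNCNCCC occurred in 102 of the 151 (67.5%), against 64.8% and 49.8%. Broad and other promoter-meeting regions thus held AAGTG and CCNCNCCC in shares within 5 percentage points of each other. For TNAAGTGG such a margin cannot show likeness, since its shares are themselves about that size or smaller and rest on 8 windows in broad sites. No test was made, and promoter windows of 1 gene can overlap. The windows met by broad sites were rich in G and C, with a median of 61.3% and 21 CG pairs per 300 bp. The medians were 60.7% and 22 in windows met by other regions, and 53.0% and 7 over the whole table. Only 21 of the 151 windows had under 10 CG pairs, among them those of Gcg, Myt1l and the Tmem176a and Tmem176b pair, of transmembrane proteins.

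The sites were of moderate extent. The median site was 410 bp wide and held 8 windows, against 110 bp and 3 windows over all listed regions. Widths ran from 310 to 960 bp and window numbers from 7 to 19. With 7 windows there were 202 sites, with 8 there were 111, and 113 sites had 10 or more. Window starts fall on a grid of 50 bp and windows are 10 bp wide, so a stretch of 7 adjoining windows is 310 bp long. In 341 sites (69.9%) the windows filled the grid without a gap. The other 147 had gaps, and in the sparsest 35.0% of the grid positions were filled. In some of the 147 few grid positions were unfilled, and the window filter is not given. Whether they hold separate enriched stretches was therefore not tested. For these sites the name broad describes their span.

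**Figure D1:**
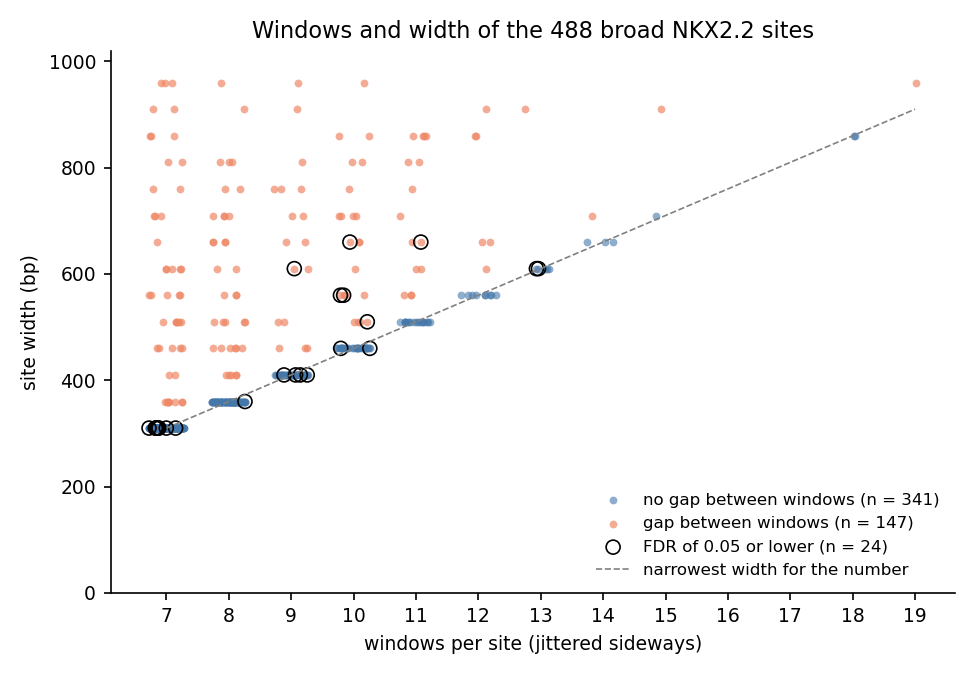
Width in bp (vertical axis) against the number of windows (horizontal axis, points shifted sideways at random) for each of the 488 broad sites. The 341 sites without a gap lie on the dashed line of narrowest possible width, the 147 with gaps lie above it, and open circles mark the 24 sites at an FDR of 0.05 or lower.

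Regions of 6 windows that met the other limits numbered 349. Their median log2 fold change, that of a representative window per region, was 0.09 in the authors' deposited table. Of the 349, 7 (2.01%) had a false discovery rate (FDR) of 0.05 or lower, against 1.36% of all listed regions. The 202 sites of 7 windows had a median of 0.13, with 9 (4.46%) at that FDR. On the width side, the 14 widest sites (910 to 960 bp) had a median of 0.16, and the 18 regions next in width (1010 to 1060 bp) had one of 0.23. None of either set reached an FDR of 0.05. Wider regions differed more from the sites. Over all 70 regions above 1000 bp that met the other limits, the deposited median was -0.05, and 8 were called (11.4%), 1 up and 7 down. All 91 regions of 7 or more windows that were not selected comprise these 70 and regions that failed the chromosome or start limit. Among the latter, 6 were at most 1000 bp wide, and all 6 had negative values. The 91 had a median of -0.40 in the table, which is therefore not a value for width alone. Of them, 1 was called up (1.1%) and 19 down (20.9%), against 0.769% and 0.592% of all listed regions. Positive values made up 60.9% of the sites, 61.9% of the 349 regions of 6 windows and 56.8% of all listed regions. Among the 91 regions not selected they made up 34.1%. The excess of positive values among the sites was thus shared by regions of 6 windows and was not found in the 91.

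The site with the most windows, 19, lay on chromosome 13 from 111397101 to 111398060, 28.1 kb from Gpbp1, which encodes a GC-rich promoter-binding protein. Next came a site of 18 windows 101 kb from Rybp, a gene of the Polycomb system, and another of 18 windows within Slco1a5, which encodes an organic anion transporter. Both were gapless and 860 bp wide. Sites of 15 windows lay within Pde3a, a cAMP phosphodiesterase gene, and at 1 end of Usp5, a deubiquitinase gene. Those of 14 windows lay 27.2 kb from Xcl1, a chemokine gene, within Ttc28, within Foxp1, a forkhead factor gene, and 0.266 kb from Kdm3a. Chromosome 6 carried 6 of these 9 sites. Their deposited log2 fold changes lay between -0.77 (Ttc28) and 0.52 (Usp5), and the smallest deposited FDR among them was 0.168, at Foxp1. None of the 9 sites with 14 or more windows was called, beside 4.92% of all broad sites and 1.36% of all listed regions. With so few sites, nothing is read from this. Of the 6 sites with 13 windows, all but 1 of them gapless and 610 bp wide, those at Cldn34d and nearest to Gm826 were called, and that within Zdbf2 was listed at 0.26 (FDR 1.0 in the table).

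Broad sites were spread over all 20 chromosomes but unevenly. Chromosome 6 held 87 (17.8% of the sites, against 9.56% of all listed regions) and chromosome 1 held 76 (15.6% against 11.0%). On chromosome 6, 13.5% of listed regions were broad sites. Chromosome 18 had 4 among 180 listed regions, chromosome 14 had 1 among 85, and X had 1 among 84.

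Most broad sites lay away from gene ends. Ends of protein-coding genes were within 1 kb of 114 sites (23.4%, 95% Wilson interval 19.8 to 27.3%), against 26.5% of all listed regions on these chromosomes. That interval treats sites as independent and includes the share over all listed regions, so no difference is read from it. Another 186 sites (38.1%) were inside a gene but farther from its ends, and 188 (38.5%) were between genes. The median distance to a gene end was 17.3 kb, against 12.1 kb over all listed regions. A gap of more than 100 kb to any protein-coding gene was found for 55 sites (11.3%). Among sites of 10 or more windows the share near gene ends was 17 of 113 (15.0%), while 45.1% lay between genes. Across window classes the share between genes went from 31.9% for single-window regions to 32.9% (2 to 3 windows), 35.3% (4 to 6) and 36.5% (7 to 9).

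**Figure D2:**
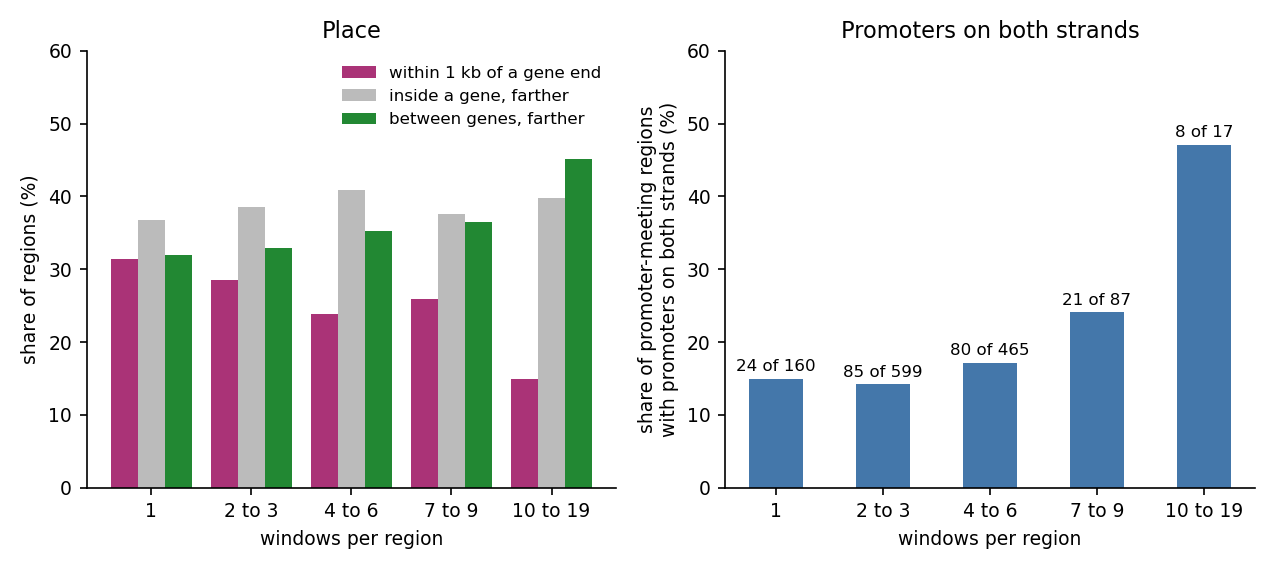
Share of regions (vertical axis, %) by number of windows (horizontal axis) for regions of at most 1000 bp. The left panel gives 3 places, and the share between genes is highest, 45.1%, for 10 to 19 windows. The right panel gives, among regions that meet a promoter window, the share that meets promoters on both strands, which is 8 of 17 for 10 to 19 windows and 24 of 160 for single windows.

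Where broad sites did meet promoters, many of them met promoters facing opposite ways. Promoter windows on both strands were met by 29 of the 104 sites (27.9%), and by 195 of the 1242 other promoter-meeting regions (15.7%). A wider region can reach more promoters, but the part of width in this difference was not tested. Among promoter-meeting regions of 7 or more windows above 1000 bp, the share was 3 of 11 (27.3%). The pairs chosen as examples, after their values were seen, are of widely expressed genes. A site of 12 windows joined Zfp142 and Bcs1l, a respiratory-complex assembly factor gene, with a deposited value of -0.74 (FDR 0.57). One of 11 windows joined Pradc1 and Cct7, a chaperonin subunit gene, at -0.01. One of 10 windows joined Pcid2 and Cul4a, a ubiquitin ligase scaffold gene, at -0.01 in the same table. Another of 10 windows joined Erh and the zinc transporter gene Slc39a9, at 0.44. None of the 29 was called, beside 1.36% of all listed regions, so nothing is read from this. A gene start lay inside 78 of the 104 sites.

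Fold changes in the authors' deposited table compare the knockdown with the scramble ChIP samples, without naming the numerator. Each value given for a site is that of a representative window, not of the whole site. That window was also the authors' best window in 127 of the 488 sites. The sign could differ between them, as at Erh (0.44 for the representative window and -0.27 for the best). Directions are given as listed, up for positive and down for negative values. Window number and fold change come from the same libraries, and a combined p-value depends on how many windows it combines. What follows describes the sites and is not a test of extent. The median deposited log2 fold change over the 488 sites was 0.13 (95% interval from order statistics 0.05 to 0.22), and over all 6758 regions it was 0.04. That interval treats sites as independent and holds no variation between replicates, so it does not test for a shift. The fold change was positive in 297 sites (60.9%, against 56.8% of all regions). It ranged from -1.09 to 1.62, with quartiles at -0.21 and 0.39. The authors' direction column named 221 sites up, 125 down and 142 mixed. It does not give the sign of each window. An absolute value of at least 1 was reached by 3 sites.

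Fold changes differed by place. The 114 near gene ends had a median deposited log2 fold change of -0.09, with 57.9% negative. The 186 inside genes had 0.23 and the 188 between genes had 0.24, with 33.3% and 33.5% negative. The other listed regions in these places had medians of -0.05, 0.08 and 0.10. Positive values made up 66.7% of broad sites inside genes and 66.5% between genes, against 62.5% and 62.0% of the other regions there. Away from gene ends, medians and positive shares were thus somewhat higher in broad sites, while the values overlapped widely in every place. These differences were not tested. In the deposited table, gaps went along with place. Of promoter-meeting sites, 41.3% had gaps, against 27.1% of the rest. In the same table, positive values were found in 70.4% of the 280 gapless sites away from promoters, in 56.7% of the 104 gapped sites there, in 47.5% of the 61 gapless promoter sites and in 27.9% of the 43 gapped promoter sites.

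**Figure D3:**
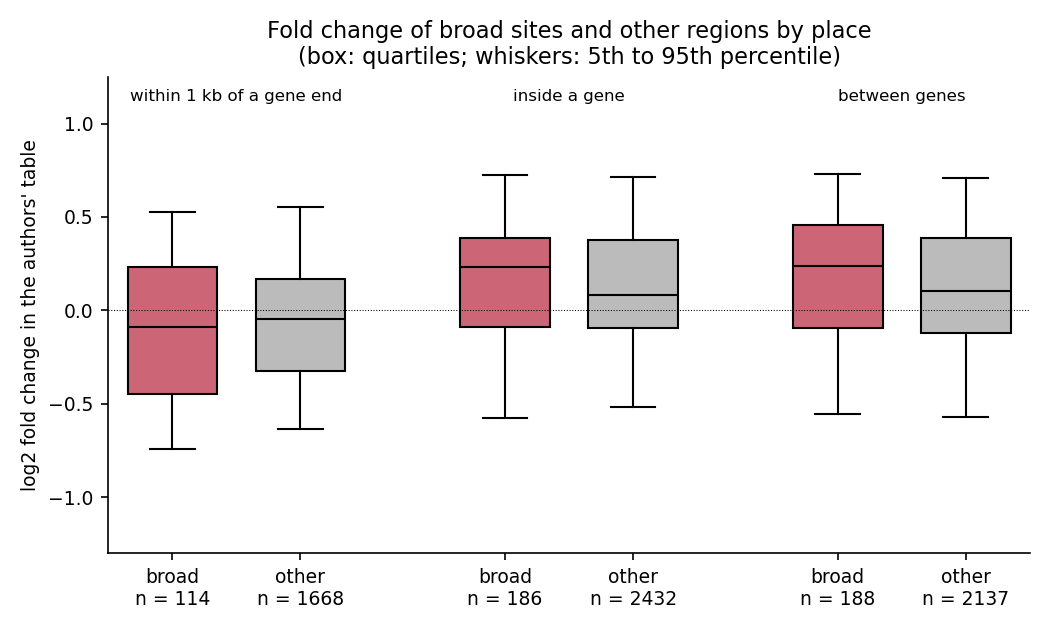
Deposited log2 fold change (vertical axis, authors' table) by place relative to protein-coding genes, for broad sites and for the other listed regions. Boxes give quartiles with the median, and whiskers span the central 90% of values. Broad sites have medians of -0.09, 0.23 and 0.24 from left to right, and all boxes overlap.

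At an FDR of 0.05 in the authors' deposited table, 24 of the 488 broad sites were called, or 4.92%. Over all listed regions the share was 1.36% (92 of 6758). Of the 24, 19 were listed as up, against 0.769% of all regions, and 5 as down, against 0.592%. Without the limits on width, chromosome and start, 20 of 579 regions were called up and 24 down in that table. Single-window regions of this width were called in 0.753% of cases and those of 10 or more windows in 7.96%. Since the combined p-value and the extent draw on the same counts, nothing is read from this difference. At an FDR of 0.01 there were 14 sites (10 up, 4 down), against 0.592% of all regions (0.237% up, 0.355% down). At 0.1 there were 32 (27 up, 5 down), against 2.31% (1.41% up, 0.903% down). The deposited best-window FDR gave 23, against 1.2%. Calls whose log2 fold change was also 1 or more in size numbered 2, against 0.488%. An unadjusted p under 0.05 was listed for 88 of the 488 sites, against 11.2% of all regions, 73 positive and 15 negative. In the deposited table, windows were counted as up or down in just those 88 sites, and no site had windows counted both ways.

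Sites listed as up lay mostly between protein-coding genes, and part of their windows were counted as up. Of the 19, 13 lay between such genes (68.4%), against 38.5% of all broad sites and 34.4% of all listed regions. This difference was not tested, and 1 of the 13 held the start of the predicted gene Gm36543. Another 5 of the 19 lay inside a gene and 1 within 1 kb of a gene end. The deposited log2 fold changes of the 19 ran from 0.37 to 1.62, with a median of 0.49. Of their 7 to 13 windows, 3 to 5 were counted as up. The highest was at a gapless 460 bp site on chromosome 8 from 102792401 to 102792860, 7.14 kb from Cdh11, which encodes a cadherin. The authors' table gave it 1.62 (FDR 0.00428), with 4 of 10 windows counted. A 510 bp site on chromosome 1 from 89164801 to 89165310, 9.97 kb from the endocytic adaptor gene Sh3bp4, had a deposited value of 0.99 at an FDR of 0.00506. Inside the carboxypeptidase gene Cpa5, a site on chromosome 6 from 30628051 to 30628460 was listed at 0.79 (FDR 0.00475 in the deposited table).

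The site 21.6 kb from Klhl7, a ubiquitin-ligase adaptor gene, had the lowest deposited FDR of the 24, 0.000217, at a log2 fold change of 0.40. The site within both Dcp1b, of the mRNA decapping complex, and Cacna1c, of the L-type calcium channel, followed among those listed as up, at 0.51 and 0.000546. Within Vwde on chromosome 6 (13169501 to 13170060), the table gave 0.59 at an FDR of 0.00292. A second broad site, of 12 windows, lay in the same gene with a deposited value of 0.43 and an FDR of 0.492. Sites between genes near Idh2 and Higd1a, both of mitochondrial proteins, were 25.1 and 12.4 kb away. The deposited log2 fold changes were 0.49 (FDR 0.00297) and 0.46 (FDR 0.00298). Near Kdm7a, a histone demethylase gene, the site lay 36.4 kb away at 0.44 (FDR 0.00475 in the table).

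Among called sites the only one that met a promoter window was that of Gm36543 on chromosome 10, from 25708151 to 25708710, whose upstream stretch is printed with the sequences. It lay 172 kb from the nearest protein-coding gene, Smlr1, and was listed at 0.46 (FDR 0.0035) in the authors' deposited table, with 3 of 10 windows up.

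In 4 of the 5 sites listed as down, nearly every window was counted. Within Aida, an axin-interacting protein gene, on chromosome 1 from 183299151 to 183299560, all 9 windows were counted as down, and the deposited value was -0.71 (FDR 0.00254). All 10 windows were counted at a gapped site on chromosome 11 from 54140051 to 54140710, 8.71 kb from the collagen hydroxylase gene P4ha2. Its values in the authors' table were -0.57 and 0.000668. On chromosome 18, a site within Kctd16, of a GABA-B receptor auxiliary subunit, had all 8 windows counted, with a deposited value of -0.44 and an FDR of 0.000241. On X, 12 of 13 windows were counted at a site within the claudin-family gene Cldn34d, at -0.46 and an FDR of 0.00515 in the table. The exception was a site 0.448 kb from an end of Slc30a4, which encodes a zinc transporter. There 3 of 11 windows were counted, the deposited log2 fold change of -1.09 was the lowest of the 488, and the FDR was 0.0214. None of the 19 sites listed as up had all of its windows counted.

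**Figure D4:**
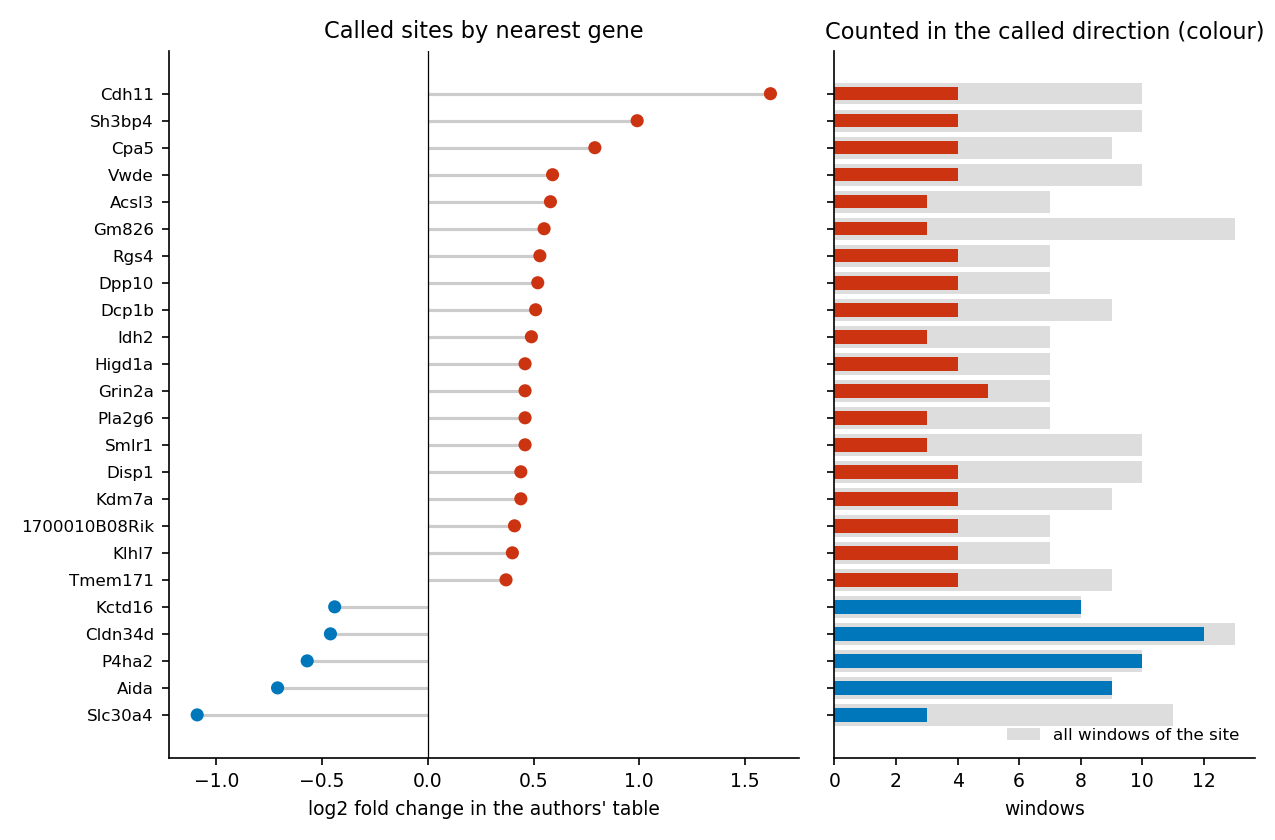
The 24 broad sites at an FDR of 0.05 or lower, ordered by fold change and named by nearest gene. The left panel plots the deposited log2 fold change from the authors' table, and the right panel the number of windows in the site (grey) with those counted in the called direction in colour. Colour fills the grey bar or nearly so in 4 of the 5 sites listed as down, and 3 to 5 windows of each site listed as up.

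Most of the largest fold changes without a call were found in sites with gaps. Among the 5 lowest values of the deposited table, those nearest to Zfp386 (-0.99), BC035044 (-0.93), Rdm1 (-0.90) and Oxsr1 (-0.81) had FDRs of 0.289, 0.104, 0.391 and 0.203. Between 47.4% and 58.3% of their grid positions were filled. Among the 5 highest, a site 366 kb from the lysosomal enzyme gene Galc had a deposited value of 1.22 and an FDR of 0.11. One within Ranbp3, a nuclear-transport gene, had 0.97 at 0.202, and one within 2610301B20Rik had 0.95 at 0.307. Of these 7 sites, that at Ranbp3 alone had no gap. The Zfp386 site lay 982 kb from that gene, so the name gives a position and no more.

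Several genes had more than 1 broad site nearest to them. The 488 sites had 442 nearest genes, of which 36 had at least 2 sites. The median distance between a site and the nearest other broad site was 786 kb, and 59 sites (12.1%) had another within 50 kb. Rybp had the most, with 5 sites over 194 kb of the intergenic stretch on chromosome 6 from 100011501 to 100205010. All 5 were gapless. Their log2 fold changes in the authors' deposited table lay between -0.51 and 0.37, with no FDR below 0.658. Foxp1, on the same chromosome, had 2 sites of 12 and 14 windows. The table listed them at 0.46 and 0.30, with FDRs of 0.203 and 0.168.

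Snd1, which encodes a nuclease-domain protein, was nearest to 4 sites over 409 kb, 3 of them inside the gene. Their deposited values were all positive, from 0.13 to 0.58, and the smallest FDR was 0.461. The neurexophilin gene Nxph1 had 3 sites, from 0.22 to 0.75 in the table, and 8 of the 10 windows of the farthest were counted as up at an FDR of 0.154. Hdac4, a histone deacetylase gene, had 3 sites within 69.6 kb outside the gene, listed at 0.64, -0.37 and 0.37. The smallest deposited FDR of the 3 was 0.2.

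Among groups of at least 3 broad sites with gaps of at most 50 kb, the shortest lay on chromosome 1 from 134060851 to 134078260, where 4 broad sites fell within 17.4 kb beside Btg2, an antiproliferative gene, and Fmod. Their deposited log2 fold changes ran from -0.37 to 0.0. Near Ptma, the gene of prothymosin, 3 sites within 38.2 kb had values of -0.51, 0.0 and -0.70 in the table, with FDRs of 0.514 or higher. Within the gene Tex14 3 sites spanned 19.4 kb, at -0.29 to 0.34. At Gpbp1 the site of 19 windows had a second broad site for company. Their representative windows were listed close to 0 (-0.09 and -0.10 in the table), and their best windows at 0.41 and -0.31. Pde3a had 2 sites at -0.04 and 0.45. In the authors' deposited table, no site of any group in this paragraph passed an FDR of 0.05, beside 1.36% of all listed regions that did.

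The genes next to broad sites were also read against lists of islet, signalling and housekeeping genes, together 439 genes. Of these, 210 had at least 1 listed region nearest to them and 38 had a broad site. The 45 broad sites were 10.3% of the 436 regions at list genes, against 7.22% of all listed regions. Of the 45, 2 were called, beside 24 of all 488 broad sites and 1.36% of all regions, and 32 had positive values in the authors' deposited table. Their median log2 fold change there was 0.30, beside 0.13 over all broad sites. Each list has few broad sites, so a list without a call is not read as a result.

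Of 36 islet transcription factor genes, 5 had 7 broad sites, and none was called. The site at Nkx2-2 itself spanned 860 bp with 11 windows and a deposited log2 fold change of 0.45 (FDR 0.99). Pdx1, the pancreatic homeobox factor, had a gapless site of 9 windows 5.89 kb away, at 0.34 (FDR 0.507 in the table). Irx2, an Iroquois factor of alpha cells, was nearest to 2 sites 176 and 227 kb away. The table listed them at 0.30 and -0.08, with FDRs of 0.311 and 1.0. At Zbtb20, a zinc-finger factor gene, there were 2 sites, at 0.13 and 0.24, with deposited FDRs of 1.0 and 0.969. Hhex, a delta-cell factor gene, had a gapless site of 11 windows at 0.15 (FDR 0.972 in the table).

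Of 24 alpha-cell products and effectors, 4 had a broad site. The Gcg site covered the promoter with 12 of 14 grid positions filled, and its deposited value of -0.54 (FDR 0.49) was the lowest in any list. Pcsk1, a prohormone convertase gene, had a site 55.5 kb away at 0.42 in the authors' table (FDR 0.238). For Scg3, of secretory granules, the value was 0.43 at an FDR of 0.773, and for Ttr, of transthyretin, -0.03 at 1.0. Among 16 beta- and delta-lineage genes, Abcc8, the sulfonylurea receptor of the ATP-sensitive potassium channel, had 2 gapless sites inside the gene. The deposited table gave 0.44 and 0.57, with FDRs of 0.657 and 0.652. Slc30a8, the granule zinc transporter gene, had a site at 0.03.

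Among 49 genes of cAMP and G-protein signalling, 7 had 8 broad sites. The one called lay 72.0 kb from Rgs4, a GTPase activator for G-protein alpha subunits, on chromosome 1 from 169819501 to 169819810. The authors' table put it at 0.53 (FDR 0.0185), with 4 windows of 7 up. Gnao1, which encodes a G-protein alpha subunit, had 0.73 at a deposited FDR of 0.311. The phosphodiesterase genes Pde1c and Pde10a had -0.09 and -0.06, Rgs7 had 0.34 at 0.915, and Rapgef4, a cAMP-activated exchange factor gene, had 0.23. The deposited FDR of Pde1c, Pde10a and Rapgef4 was 1.0. Of 62 adhesion and guidance genes, 3 had a broad site, all cell-adhesion genes with positive deposited values. These were Cdh11, called as given with the sites listed as up, Cdh1 (0.46, FDR 0.377) and Cadm2 (0.31, FDR 0.41).

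Of 52 channel genes, 3 calcium-channel genes had a site, at 0.94 (Cacna1c), 0.46 (Cacna1a) and 0.30 (Cacna2d2) in the deposited table, with FDRs of 0.345, 0.471 and 0.601. This Cacna1c site is a second one, inside the gene and 95.8 kb from its end, and differs from the called site it shares with Dcp1b. Of 45 exocytosis genes, 5 had a site, among them Syn2 (0.51), Ptprn2 (0.29), Sv2c (-0.19) and Syt13 (-0.41) in the authors' table, and none had an FDR below 0.669. Among 50 corepressor and chromatin genes, 3 had 5 broad sites, among them those of Hdac4 and that of the Polycomb methyltransferase gene Ezh2 (-0.48, deposited FDR 0.395). None of the 5 was called.

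Of 26 KLF and SP family genes, Klf12 alone had a broad site, 173 kb away, at 0.43 in the authors' table (FDR 1.0), and no broad site lay nearest to Klf4. In the MYT1 family, Myt1l had 2 sites. One covered its promoter at 0.23 (deposited FDR 0.967) and one lay 287 kb away at -0.09 (FDR 1.0 in the table). Among 61 translation and respiratory genes there were 3 sites, none called, among them those nearest to Eif4g2 (0.90) and Rplp1 (0.35 in the deposited table). All 7 windows of the Eif4g2 site were counted as up, yet its deposited FDR was 0.162. Of 18 exocrine and mesenchymal marker genes, Col1a2 had 1 site, 108 kb away, at 0.39 (FDR 0.722 in the table).

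**Figure D5:**
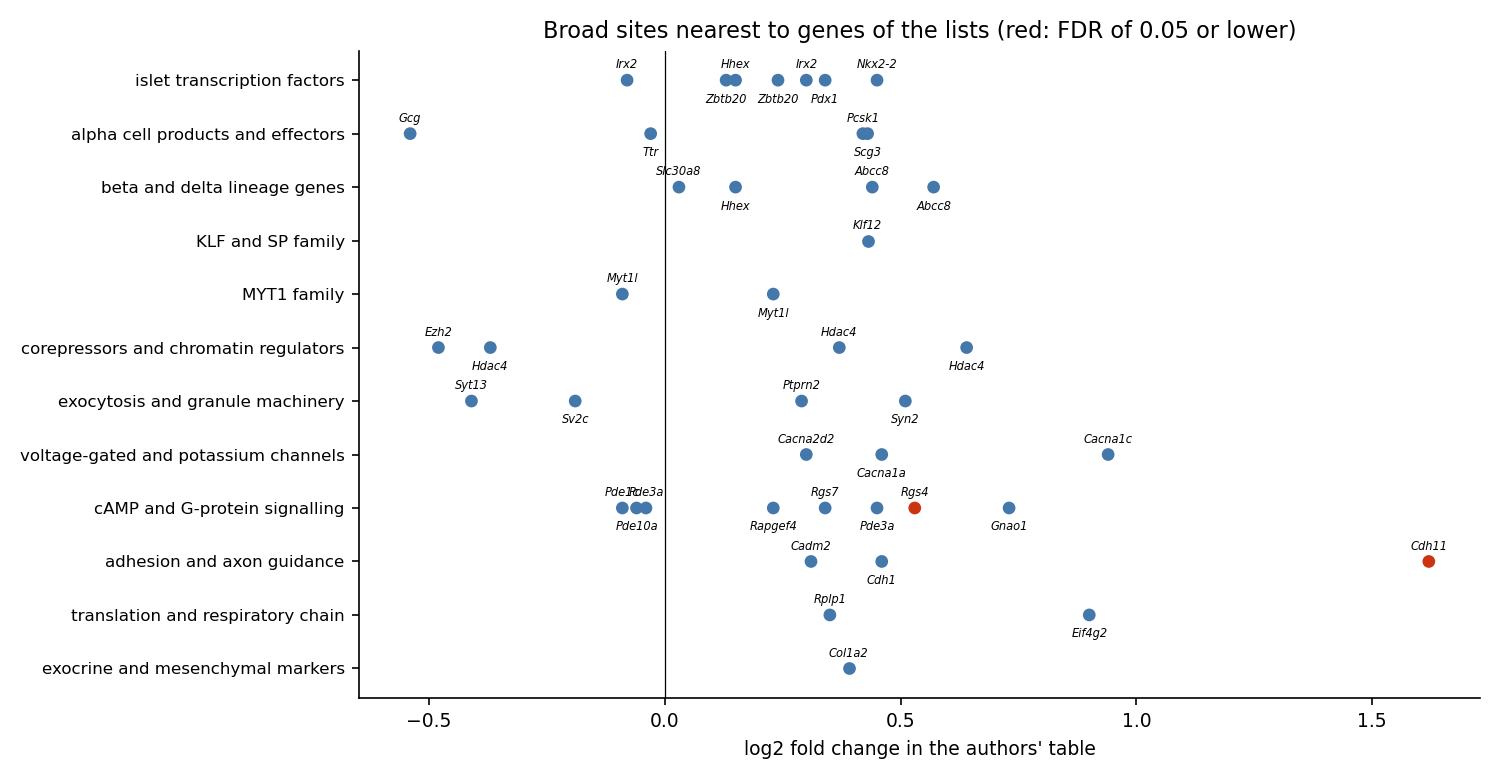
Deposited log2 fold change (horizontal axis, authors' table) of broad sites nearest to genes of the 12 lists (rows), labelled by gene. The 2 sites in red, at Rgs4 and Cdh11, are at an FDR of 0.05 or lower, and 31 of the 42 sites drawn lie to the right of 0. The Hhex site is drawn in both lists that hold the gene.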

How the data were processed

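NKX2.2 ChIP-seq of Klf4-knockdown and scramble alphaTC6 cells was analysed from 1 deposited table of 6758 regions. The authors compared the ChIP groups with csaw, per the series' design text. The submitters' processing notes name the build mm10 and the tools FastQC, Bowtie2 and MACS2, without roles. Window filter, normalization, covariates and the use of input are not given in the sources used here. The authors deposited log2 fold changes of a representative and of the best window, and combined and best-window p-values with FDR values, per the file headers. The FDR equals a Benjamini-Hochberg adjustment over all 6758 regions.

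The table holds no value per library, so depth, replicate spread and the effect of single samples are not known here. The series' design text calls the samples biological replicates, and p-values are the authors' own. No count test was run, since that needs counts per library. Sites were selected by the limits given in the report. Site midpoints were matched to the nearest of 21631 protein-coding genes of RefSeq GRCm38.p6, used for gene bounds only, since it lists neither strand nor exons. Gene starts and sequences came from the RefSeq promoter table, which has 32619 windows on the chromosomes used and none on chromosome 18. Overlap of at least 1 bp counted as meeting a promoter. Genes were named by a rule: up to 10 called sites per direction, the 10 sites with the most windows (ties by smaller width), the 5 highest and 5 lowest fold changes, up to 10 genes with several sites (ties by summed windows), and genes of the lists. Other names, and the printed sequences except those of Kdm3a and Gm36543, were chosen after their values were seen. The sites, lists and rule were chosen with earlier results of these data known. Some genes are not reported here. No test over sites was made. Functions were tested on simulated data. Calculations used pandas 2.3.3, scipy 1.17.1 and numpy 2.4.6 under Python 3.11.15, and plots used matplotlib 3.10.9.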

Additional observations from a re-analysis of the deposited data

How the results depend on the processing

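No paired analysis was possible because values are given per comparison and carry no replicate numbers. Leaving out replicates was not run for the same reason. The count of 24 called sites became 14 at an FDR of 0.01 and 2 when the absolute fold change (log2) also had to reach 1. It was 46 of 1717 regions with a minimum of 5 windows and 9 of 113 with a minimum of 10. Without chromosomes 1 and 6, an alternative chosen after seeing the data, it was 14 of 325. These subsets hold fewer or more sites by construction. Other alternatives (among them sites without gaps, also chosen after seeing the data) gave 16 to 32 calls, and sites listed as up outnumbered those listed as down in these. The fold-change limit left 1 of each. With no limit on width, chromosome or start, another setting chosen after seeing the data, 44 of 579 regions were called, 20 up and 24 down, so that the larger number was then listed as down. Of the 24, the site near Pla2g6 missed the threshold by its best window (FDR 0.0502), and the site near Acsl3 missed it when the FDR was recomputed over regions of at most 1000 bp (0.0572).

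The median fold change of 0.13 (log2) was 0.28 by best windows and 0.23 for sites that meet no promoter, the latter chosen after seeing the data, and stayed between 0.06 (no limit on width, chromosome or start) and 0.22 otherwise. The share near gene ends, 23.4%, was 29.5% at 3 kb (34.0% of all regions), 42.6% at 10 kb (47.4%), 30.5% with ends of all genes (32.0%) and 15.0% with a minimum of 10 windows. The motif share of 51.7% was 5.3% for TNAAGTGG. Unknown depth limits every statement that a site was not called.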
